A study of Mus musculus with 26 samples.

Results

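Gm10800 and 9 related predicted genes (Gm10801, Gm10715, Gm10717, Gm10718, Gm10719, Gm10720, Gm10721, Gm10722 and Gm11168) were followed by name in mouse cortex RNA, as 10 of the 39179 gene entries counted in each library. They were selected on measured values: Gm10800 and Gm10718 were far higher in stroke cortex after 15 weeks of diet, so every value that sets the members at 15 weeks against 6 weeks is given as a description with no test. The study compared cortex taken 3 days after a stroke or a sham operation in C57BL/6J mice, an inbred strain, fed a diet with 60% (high-fat) or 6% (control) of its calories from fat. After 6 weeks of feeding each diet had 3 sham libraries, and stroke had 4 libraries with control feed and 6 with high-fat feed. After 15 weeks stroke again had 4 and 6. All groups shared the strain and the day of sampling, and the stroke tissue held both the lesion core and the tissue bordering it. A sham group at 15 weeks was not analysed here, and the labels give no age, so weeks of feeding, age and separate handling of the 15-week samples cannot be told apart.

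The names are those of predicted protein-coding genes whose sequence is close to the mouse major satellite, a short unit repeated head to tail in long blocks beside the centromeres of most mouse chromosomes. Such blocks are usually packed as heterochromatin, marked by methylation of histone H3 on lysine 9 and bound by HP1 proteins, and give little RNA in most resting cells. Satellite RNA is known to become detectable in some stressed, dividing or diseased cells. Because copies of the unit differ little, a short sequenced fragment often cannot be placed on a single copy.

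The first 240 bases of 4 transcripts are shown because they make the repeat visible: those of Gm10800, which carried most of the counts, of Gm10801 beside it on chromosome 2, and of Gm10718 and Gm11168 on chromosome 9. The sequences are from the GENCODE M21 transcripts (GRCm38), 5′ to 3′ on the transcript strand, and the capitals mark CATTTTTCACGT, a word of 12 bases present in the longest transcript of all 10 members.
Gm10800: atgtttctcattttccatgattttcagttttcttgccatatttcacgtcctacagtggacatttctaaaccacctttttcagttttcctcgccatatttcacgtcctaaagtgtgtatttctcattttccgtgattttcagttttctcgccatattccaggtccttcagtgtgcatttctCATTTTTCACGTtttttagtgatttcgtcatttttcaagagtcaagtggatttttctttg
Gm10801: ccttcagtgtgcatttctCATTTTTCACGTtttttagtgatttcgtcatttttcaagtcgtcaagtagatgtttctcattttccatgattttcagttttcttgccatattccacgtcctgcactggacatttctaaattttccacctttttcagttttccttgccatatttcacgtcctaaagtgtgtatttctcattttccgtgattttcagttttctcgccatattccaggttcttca
Gm10718: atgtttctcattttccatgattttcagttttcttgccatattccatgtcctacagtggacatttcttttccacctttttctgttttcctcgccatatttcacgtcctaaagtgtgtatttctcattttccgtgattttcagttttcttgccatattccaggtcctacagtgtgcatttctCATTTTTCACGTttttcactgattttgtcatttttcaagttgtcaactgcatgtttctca
Gm11168: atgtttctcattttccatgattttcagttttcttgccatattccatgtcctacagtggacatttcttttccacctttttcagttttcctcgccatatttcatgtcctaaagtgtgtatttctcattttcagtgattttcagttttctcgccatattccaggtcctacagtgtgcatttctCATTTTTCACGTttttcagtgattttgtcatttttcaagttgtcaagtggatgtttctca
The word starts at base 181 of Gm10800, Gm10718 and Gm11168 and at base 19 of Gm10801, which begins at another place in the same unit. It was picked after the sequences were read, as the most frequent of the 132 words of that length shared by all members that also hold CG. Their longest transcripts hold 26 copies of it on the transcript strand. Searched on both strands, CATTTTTCACGT lies in the first 240 bases of a transcript of 15 of 47964 genes long enough to be searched, or 0.0313%, and 12 of these 15 are members or genes related to them by sequence.

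The annotated transcripts were themselves repeats. Laid against itself at shifts between 20 and 300 bases, the longest transcript of 7 members matched best at a shift of 234 bases. Gm10800 matched best at 225 bases, Gm10801 at 231 and Gm11168 at 237. At these shifts between 52.7% and 67.6% of positions held the same base, while the median over all shifts was between 30.7% and 31.8%. A shorter spacing of 58 bases gave the best match below 150 bases in all 10 members. The longest transcripts ran from 504 to 684 bases, all multiples of 3 with no untranslated region annotated, and 64% to 65.7% of their bases were A or T. Over a stretch of 234 bases, the 45 pairs of members were between 91.5% identical (Gm10800 with Gm10722) and 98.7% identical (Gm10718 with Gm10721).

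**Figure D1:**
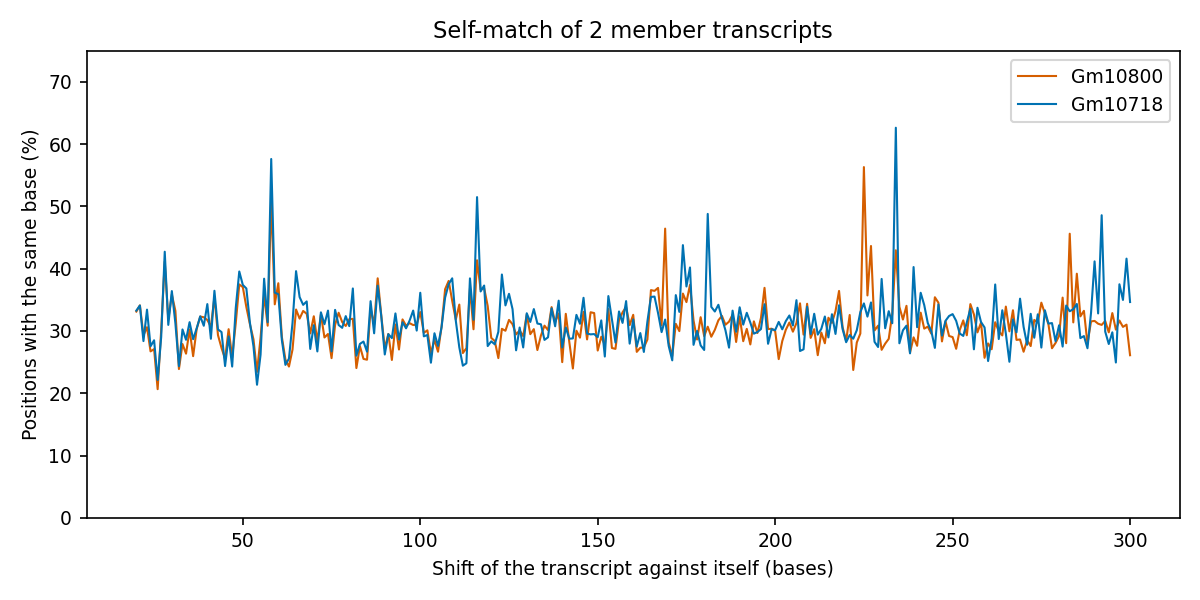
Share of positions holding the same base (y axis, %) when the longest transcript of Gm10800 (orange) or Gm10718 (blue) is laid against itself at shifts of 20 to 300 bases (x axis). Both lines peak at 58 bases, and the highest peak is at 225 bases for Gm10800 and at 234 bases for Gm10718.

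In the annotation, Gm10800 lies on the minus strand and Gm10801 on the plus strand of chromosome 2. The other 8 members follow each other on the plus strand of chromosome 9, in the order Gm10722, Gm11168, Gm10721, Gm10720, Gm10719, Gm10718, Gm10717 and Gm10715. A search of 141767 transcripts with the members found 13 genes with a match of at least 100 bases in which 80% or more of the bases were identical: the 10 members and 3 others. Gm17535 on chromosome 9 and Gm21738 on chromosome 14 matched in the same orientation, at 96.3% and 92.0%. Gm26870, a noncoding RNA gene on the minus strand of chromosome 9, overlapped all 8 members there and matched in the opposite orientation. Counting is not stated to use strand, so reads of the 8 chromosome 9 members and of Gm26870 cannot be told apart with certainty. With sequences as close as those above, fragments may also be shared between members, so the count of any single member is uncertain.

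The libraries held between 11400882 and 16962682 counts in genes, and values below are counts or CPM, which are counts scaled to a common total of counts in genes with TMM, a factor for RNA composition. Among cortex markers, Snap25 of neurons stood at 1730 CPM or more and Slc17a7 of excitatory neurons at 387 CPM or more in every library. The 4 hypothalamus markers had a mean log2 level of at most 0.51. Striatum markers were present at a mean log2 level between 2.79 and 5.88, and choroid plexus markers had group medians of 1.16 and 2.00 in sham, 1.20 and 1.18 in 6-week stroke and 1.23 and 1.11 in 15-week stroke on the control and high-fat diet. A pair of 15-week stroke libraries stood apart in genes that are no members: high-fat replicate 1 and control-diet replicate 3 had the lowest mean log2 level of 6 injury genes (Spp1, Gfap, Vim, Lgals3, Cd68 and Lcn2), at 4.11 and 4.82, where the other 8 lay between 6.59 and 7.58. The 10 stroke libraries at 6 weeks lay between 5.28 and 7.27 and the 6 sham libraries between 2.84 and 3.31. The labels do not say that each library is a different animal, and p-values below therefore speak only of the spread among libraries, which may be technical.

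Gm10800 was the most abundant member and had counts in all 26 libraries. In sham cortex it stood at 8, 10 and 12 counts on the control diet and at 10, 11 and 15 on the high-fat diet. In 6-week stroke it stood at 83, 124, 131 and 23 counts on the control diet, and on the high-fat diet the 6 libraries had a lowest count of 33, a median of 159.5 and a highest of 270. Every 6-week stroke library was thus above every sham library. In 15-week stroke it stood at 6563, 4104, 77 and 2540 counts on the control diet, and on the high-fat diet the lowest count was 38, the median 1436 and the highest 1806. The 77 and the 38 belong to the libraries with low injury genes, and the other 8 libraries at 15 weeks were above all 18 remaining libraries of the series.

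**Figure D2:**
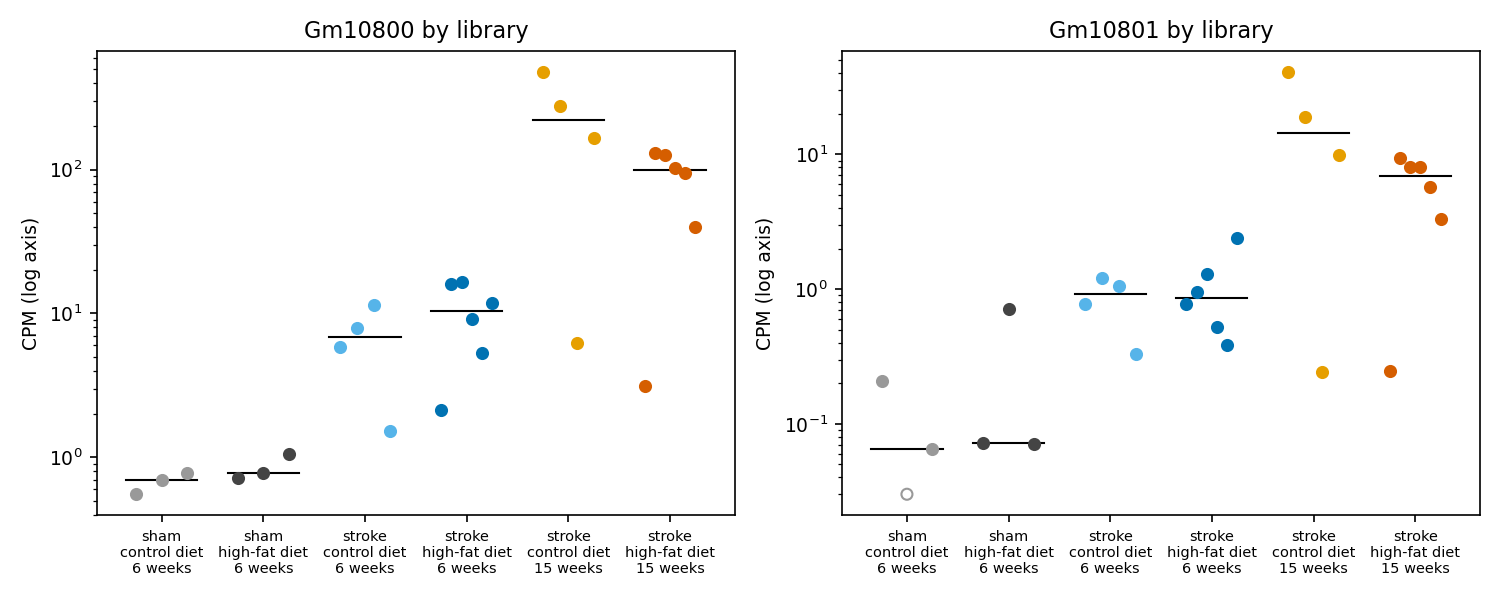
CPM of Gm10800 (left) and Gm10801 (right) on log axes in each library (points) of the 6 groups, with the group median as a line. An open point marks the 1 library with no Gm10801 count, drawn at the foot of the axis. Gm10800 medians run from 0.699 CPM in control-diet sham to 221 CPM in control-diet stroke at 15 weeks, and 1 library in each 15-week group falls to the level of 6-week stroke.

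As CPM, Gm10800 averaged 0.677 ± 0.113 (SD, n = 3) in control-diet sham and 0.854 ± 0.182 (SD, n = 3) in high-fat sham. It averaged 6.70 ± 4.18 (SD, n = 4) and 10.2 ± 5.81 (SD, n = 6) in 6-week stroke on the same diets. At 15 weeks it averaged 232 ± 198 (SD, n = 4) on the control diet and 83.2 ± 51.0 (SD, n = 6) on the high-fat diet. The highest library was 865-fold above the lowest over the series and 153-fold within 15-week stroke alone. In all 4 stroke groups the SD was more than 0.5 of the mean. Of the 21566 Gm10800 counts, 93.5% came from the 10 libraries at 15 weeks. In bulk tissue, more cells with such RNA and more of it per cell cannot be told apart.

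The level of all 10 members summed gave the same order of groups by median: 0.769 CPM in control-diet sham, 1.2 in high-fat sham, 8.46 and 12.3 in 6-week stroke on the control and high-fat diet, 110 in 15-week stroke on the high-fat diet and 245 in 15-week stroke on the control diet. Gm10800 makes up most of this sum. Without it the 6-week stroke medians changed places, at 1.59 CPM on the control and 1.38 CPM on the high-fat diet. Neighbours in the order of the full sum overlapped, apart from high-fat sham and control-diet 6-week stroke. The lowest library of each 15-week group, at 3.37 and 6.76 CPM, lay within the range of 6-week stroke. Without both libraries with low injury genes the 15-week medians were 116 and 306 CPM.

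The other members were far lower. Per 100 bases of longest transcript and over all libraries, Gm10800 had 3270 counts, Gm10801 had 325, Gm10722 had 41.2, Gm10718 had 39.5, Gm11168 had 32.9 and Gm10717 had 20.2. Gm10801, the neighbour of Gm10800 on chromosome 2, had between 0 and 10 counts in sham and between 5 and 33 in 6-week stroke. In 15-week stroke it had 562, 282, 3 and 152 counts on the control diet, and on the high-fat diet a lowest count of 3, a median of 97 and a highest of 131. Its low values were again those of the pair of libraries with low injury genes.

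Gm10718, the other gene the choice rests on, had 1 count in each of 2 sham libraries and none in the other 4. It had between 0 and 3 counts in every 6-week stroke library. At 15 weeks it had 84, 48, 1 and 35 counts on the control diet, and on the high-fat diet between 0 and 26 with a median of 15.5. Gm10722, Gm11168 and Gm10717 followed it: their highest counts were 7, 3 and 3 in 6-week stroke and 87, 107 and 40 at 15 weeks, each in control-diet replicate 1. In that library Gm11168 exceeded both Gm10718 and Gm10722, which it did in none of the other 7 high libraries.

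The remaining 4 members, Gm10715, Gm10719, Gm10720 and Gm10721, had 42, 43, 10 and 21 counts in all libraries together. Of these 116 counts, 111 came from 15-week stroke. They did not pass the filter on low counts and were not tested, so tests below cover 6 of 10 members, which passed largely through the 15-week libraries where they are high.

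**Figure D3:**
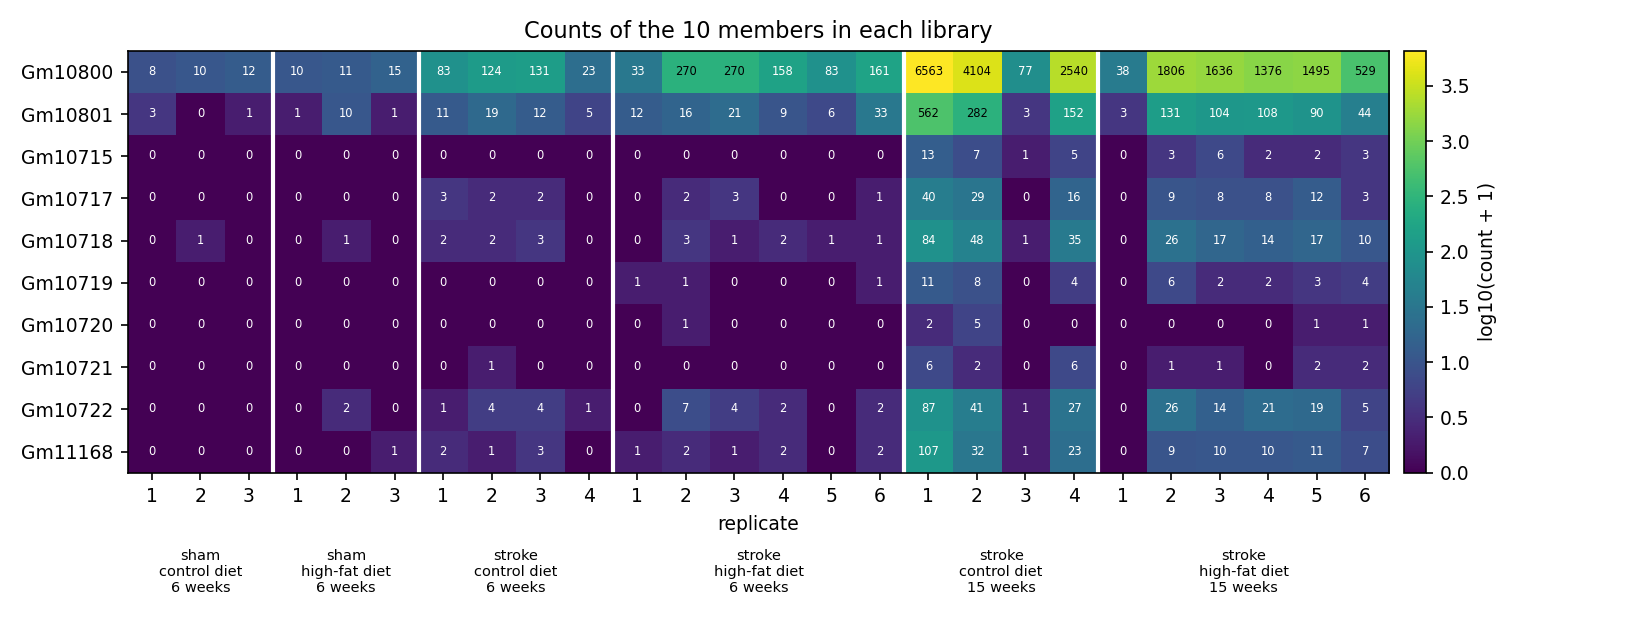
Counts of the 10 members (rows) in each of the 26 libraries (columns, by group and replicate), with the colour giving log10(count + 1) and the count printed in each cell. Counts concentrate in 8 of the 10 libraries at 15 weeks, and the sham columns are at 0 for most members.

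Proportions between members were compared where counts were high enough. In the 8 libraries at 15 weeks with at least 500 Gm10800 counts, Gm10801 had between 5.98 and 8.56 counts per 100 Gm10800 counts, with a median of 7.06. Gm10718 had a median of 1.23 (1.02 to 1.89), Gm10722 of 1.17 (0.856 to 1.53) and Gm10717 of 0.595 (0.489 to 0.803). Gm11168 varied most of these members, from 0.498 to 1.63 with a median of 0.758. Gm21738, the related gene on chromosome 14, had between 10.4 and 12.9 per 100 Gm10800 counts, the narrowest range among these genes in proportion to its median of 11.4. Gm26870, on the strand opposite the chromosome 9 members, varied more, from 3.46 to 37.1 with a median of 6.72. It had 1496 counts in control-diet 15-week replicate 1 alone. The files do not show which copy a fragment came from, and the part of fragments shared between copies in these ratios was not tested.

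**Figure D4:**
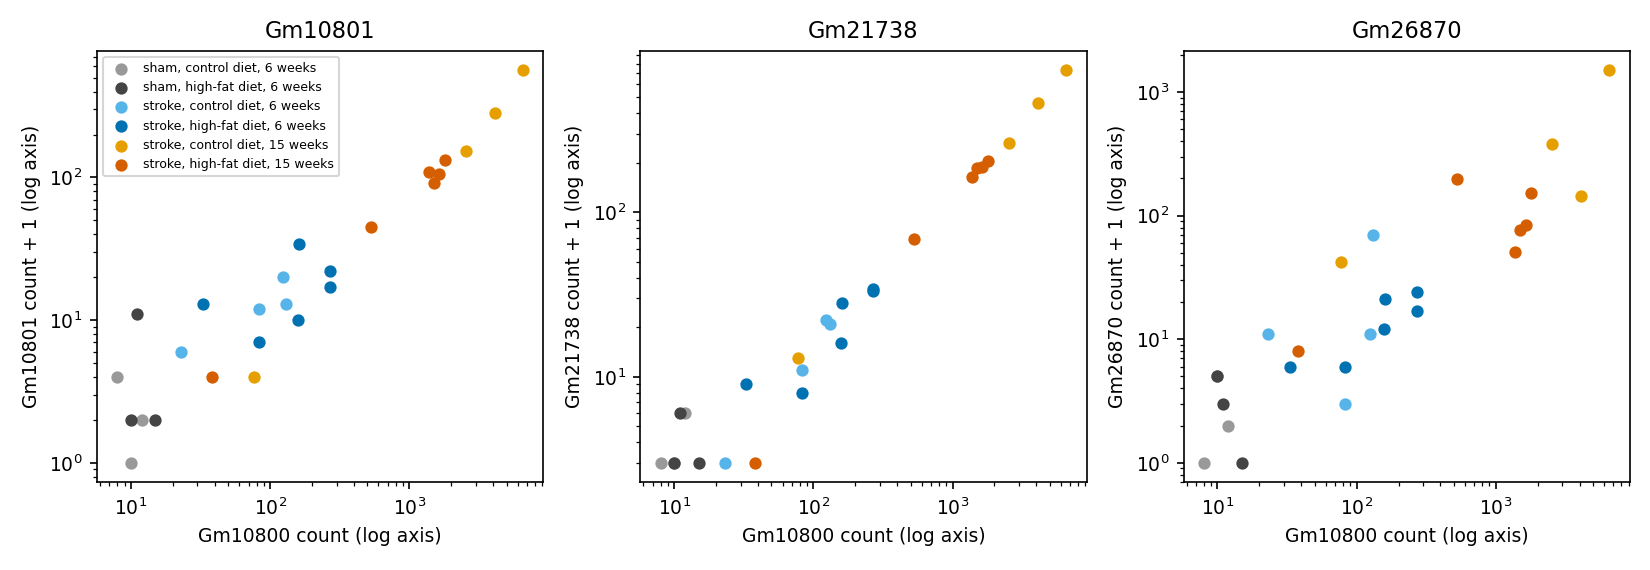
Counts of Gm10801, Gm21738 and Gm26870 (y axes, count + 1, log) against the Gm10800 count (x axes, log) in each library, coloured by group. Gm10801 and Gm21738 lie close to a straight line at high counts, and Gm26870 scatters around one.

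Gm10800 carried most member counts in every condition. Pooled over libraries, Gm10800 held 75.9% of 87 member counts in sham (exact 95% interval 65.5% to 84.4%), 86.1% of 1552 in 6-week stroke (84.3% to 87.8%) and 89.3% of 22582 in 15-week stroke (88.9% to 89.7%). Gm10801 held 18.4% in sham, 9.28% in 6-week stroke and 6.55% in 15-week stroke. The intervals cover counting error only. The sham values rest on high-fat replicate 2, which had 10 of the 16 Gm10801 counts: without it Gm10800 held 87.3% and Gm10801 9.52% of 63 counts. High-fat sham replicate 2 also had the highest choroid plexus marker level in sham, at 3.35, and the part of this in its counts was not tested. The 8 chromosome 9 members together held 5.75% (1.89% to 12.9%) in sham, 4.64% (3.65% to 5.81%) in 6-week stroke and 4.16% (3.90% to 4.43%) in 15-week stroke.

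Stroke was first set against sham at 6 weeks, a contrast the choice of members did not use. On the control diet, 3 of the 6 members tested (Gm10800, Gm10801 and Gm10722) were higher in all 4 stroke libraries than in all 3 sham libraries, a pattern seen in 14.9% of all 16325 genes tested. The mean CPM of Gm10800 was 9.90 times that of sham. Its log2 fold change was 3.25 ± 1.70 (SE), with an adjusted p of 0.256 by edgeR's quasi-likelihood test. That test called 0 of the 6 members, while 5.10% of all genes were called higher and 2.57% lower, and 0 members had an unadjusted p under 0.05 against 23.2% of all genes. DESeq2 called 1 member, Gm10800, with an adjusted p of 0.0112, beside 1792 of the 16325 genes, higher or lower. EdgeR fitted to only these groups called both members that then passed the filter, Gm10801 and Gm10800, the latter with an adjusted p of 0.0371. The share of all genes called in that fit is not given here. For Gm10800 alone, the exact two-sided permutation test of log2 CPM gave p = 0.0571 (adjusted over 5 comparisons 0.143), where 0.0286 was the smallest p possible.

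On the high-fat diet, Gm10800 was the 1 member of the 6 tested with all 6 stroke libraries above all 3 sham libraries, beside 15.8% of all genes. The mean CPM was 11.9 times that of sham, and the log2 fold change was 3.56 ± 1.5 (SE) with an adjusted p of 0.0894 by edgeR's quasi-likelihood test. Again 0 of 6 members were called, beside 14.2% of genes called higher and 8.85% lower. Gm10800 alone had an unadjusted p under 0.05, which 36.1% of all genes had. DESeq2 called Gm10800 with an adjusted p of 0.000795, beside 4037 of the 16325 genes, higher or lower. EdgeR on only these groups called Gm10800 with an adjusted p of 0.0103, and the share of all genes called in that fit is not given here. The exact two-sided permutation p for Gm10800 was 0.0119, the smallest possible, or 0.0595 adjusted over 5 comparisons. In the fit over all 26 libraries the biological coefficient of variation of Gm10800 was 0.827, against 0.136 for all genes in common.

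The other tested members had log2 fold changes above 0 in both stroke contrasts, with no count in many sham libraries, and none of them had in edgeR's main test an adjusted p under 0.05. Gm10801 had log2 fold changes of 3.09 ± 1.92 (SE) and 1.83 ± 1.40 (SE), with adjusted p of 0.349 and 0.370 in edgeR's test. Gm10718, at 7 and 8 counts over all 6-week stroke libraries of each diet, had few counts behind its value in either contrast. The difference of the stroke response between diets at 6 weeks was 0.31 ± 2.77 (SE) for Gm10800 on the log2 scale (edgeR adjusted p = 0.987). In that interaction 0 of 6 members were called by edgeR or DESeq2, beside 0% of all genes by edgeR and 1 gene by DESeq2. By edgeR 0 members had an unadjusted p under 0.05, beside 5.60% of all genes.

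Diet in 6-week stroke gave no call for the members by edgeR, beside 0% of all genes called. Gm10800 was 0.64 ± 0.93 (SE) higher on the high-fat diet on the log2 scale, with an adjusted p of 0.833 by edgeR. None of the 6 members had groups that did not overlap, beside 1.04% of genes higher and 1.21% lower, and 0 had an unadjusted p under 0.05 beside 6.99% of genes. In sham, the Gm10800 difference was 0.33 ± 2.54 (SE) with an adjusted p of 0.999 by edgeR, at no more than 15 counts in any library. There too 0 of 6 members were called by edgeR, beside 0% of all genes, and 0 had an unadjusted p under 0.05, beside 4.79% of genes. None had groups that did not overlap, beside 4.66% of genes higher and 7% lower. DESeq2 called 0 members in either diet contrast, beside 0 of all genes in 6-week stroke and 2 in sham.

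Diet in 15-week stroke was compared in libraries for whose high values the members were chosen, and the 6 tested passed the filter largely through them. Counts over these 6 therefore support nothing here, and no difference passed the adjusted test. Gm10800 stood at a mean of 83.2 CPM on the high-fat diet and 232 CPM on the control diet, a log2 difference of −1.48 ± 0.71 (SE) with an adjusted p of 0.628 by edgeR. Gm11168 differed by −2.31 ± 0.62 (SE), with an adjusted p of 0.383 by edgeR. That value leans on control-diet replicate 1: without it the difference was −1.14 ± 0.57 (SE, edgeR adjusted p = 0.424), and the control-diet mean was 1.25 CPM against 0.568 CPM on the high-fat diet. The test called 0 of the 6 members, beside 0% of the 16325 genes, and 6 had an unadjusted p under 0.05 beside 7.96% of all genes. Members share sequence, so they are not 6 separate observations. DESeq2 also called 0 members, beside 10 of all genes. Gm10800 alone had an adjusted p by DESeq2, of 0.590, the others being left without one.

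That diet difference was read with and without the pair of libraries with low injury genes, 1 on each diet. With all libraries the groups overlapped for all 6 members, while 0.41% of genes were higher and 0.711% lower without overlap, and the exact permutation p for Gm10800 was 0.514 (adjusted 0.514). Without the pair, which holds the lowest Gm10800 level of each diet at 15 weeks, the 3 control-diet libraries had 166.6 to 479 CPM and the 5 high-fat libraries 40.0 to 130 CPM. These ranges do not overlap, beside 2.57% of all genes that were lower and 2.02% that were higher on the high-fat diet without overlap in the same 8 libraries. The Gm10800 difference was then −1.62 ± 0.44 (SE), with an adjusted p of 0.434 by edgeR. Gm11168 had a difference of −2.45 ± 0.43 (SE) and an adjusted p of 0.0772 by edgeR. The pair was left out after the data were seen. Without control-diet replicate 1, the highest library, the Gm10800 difference was −0.85 ± 0.76 (SE) on the log2 scale, with an adjusted p of 0.635 by edgeR.

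The 15-week against 6-week values that led to the choice of members are given as a description. On the control diet the Gm10800 mean was 34.6 times that at 6 weeks, a log2 fold change of 5.15, and on the high-fat diet 8.17 times, a log2 fold change of 3.03. Without control-diet 15-week replicate 1 the control-diet ratio was 22.3 and the log2 fold change 4.52. The 5 other tested members had log2 fold changes between 3.50 and 4.65 on the control diet and between 2.49 and 3.48 on the high-fat diet. With all libraries the groups overlapped for all 6 on both diets, while 3.45% and 0.557% of all genes were higher in every 15-week library than in every 6-week library on control and high-fat feed, and 5.93% and 1.23% lower.

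Injury gene levels moved with Gm10800 between sham and stroke and set apart the same pair of libraries at 15 weeks. Spp1, a secreted protein of phagocytes in lesions, stood at 28.9 and 90.6 CPM in these 2 libraries, against medians of 958 and 731 CPM in their groups. Across the 10 libraries of 6-week stroke, Gm10800 and the mean of the 6 injury genes had Pearson's r of 0.727 (permutation p = 0.0172, adjusted over 16 relations 0.0888) and Spearman's rho of 0.612 (permutation p = 0.0662, adjusted 0.258). Without the 2 libraries farthest from the median, r was 0.338, so the relation rests on them. At 15 weeks the libraries fell into groups of 2 and 8, so no correlation of Gm10800 with these measures over all 10 is given. Within the 8, r was −0.387 (exact permutation p = 0.349, adjusted over 8 relations 0.559) and rho −0.667 (exact permutation p = 0.0831, adjusted 0.385), and r was −0.365 without the 2 libraries farthest from the median. The 8 hold 5 high-fat and 3 control-diet libraries, whose Gm10800 ranges did not overlap. Diets were not kept apart in the permutations, so every relation within the 8 mixes diet with the measure, and its sign cannot be read apart from diet. The pair also stood apart in cortex markers, with a mean log2 level of 7.86 and 8.0 there and between 8.17 and 8.32 in the 8. That list holds Gfap, 1 of the 6 injury genes, and Aqp4, Cx3cr1 and P2ry12, whose medians were higher in every stroke group than in sham. Sham libraries had the lowest cortex marker levels, between 7.61 and 7.71, so this list is no measure of cortex separate from injury. Choroid plexus markers stood at 1.80 and 1.74 in the pair and between 0.606 and 1.70 in the 8. Of the 8 measures related to Gm10800 within the 8 libraries, the r farthest from 0 were −0.699 for ribosomal DNA genes (exact permutation p = 0.077), −0.671 for blood markers (exact permutation p = 0.085) and 0.614 for the silent receptor genes described next (exact permutation p = 0.105), each with an adjusted p of 0.279. Without the 2 libraries farthest from the median these became 0.116, 0.221 and 0.3, so they rest on those libraries. Cortex and choroid plexus markers had r of −0.191 and −0.224 within the 8, with exact permutation p of 0.652 and 0.599. In 6-week stroke no other measure had an r farther from 0 than −0.496. By rank, choroid plexus markers had rho of 0.661 there (permutation p = 0.0445, adjusted 0.258). Silent receptor genes had rho of −0.636 (permutation p = 0.0547, adjusted 0.258). Without the 2 libraries farthest from the median of each measure, rho was 0.738 and −0.738 for these, and 0.262 for injury genes. In 6-week stroke no relation had an adjusted p under 0.05. At similar injury gene levels the groups differed: the 8 high 15-week libraries, at 6.59 to 7.58, had between 40.0 and 479 CPM of Gm10800, and 6-week stroke libraries reached 7.27 with at most 16.6 CPM. The part of lesion size, tissue makeup or RNA composition in the member levels was not tested.

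**Figure D5:**
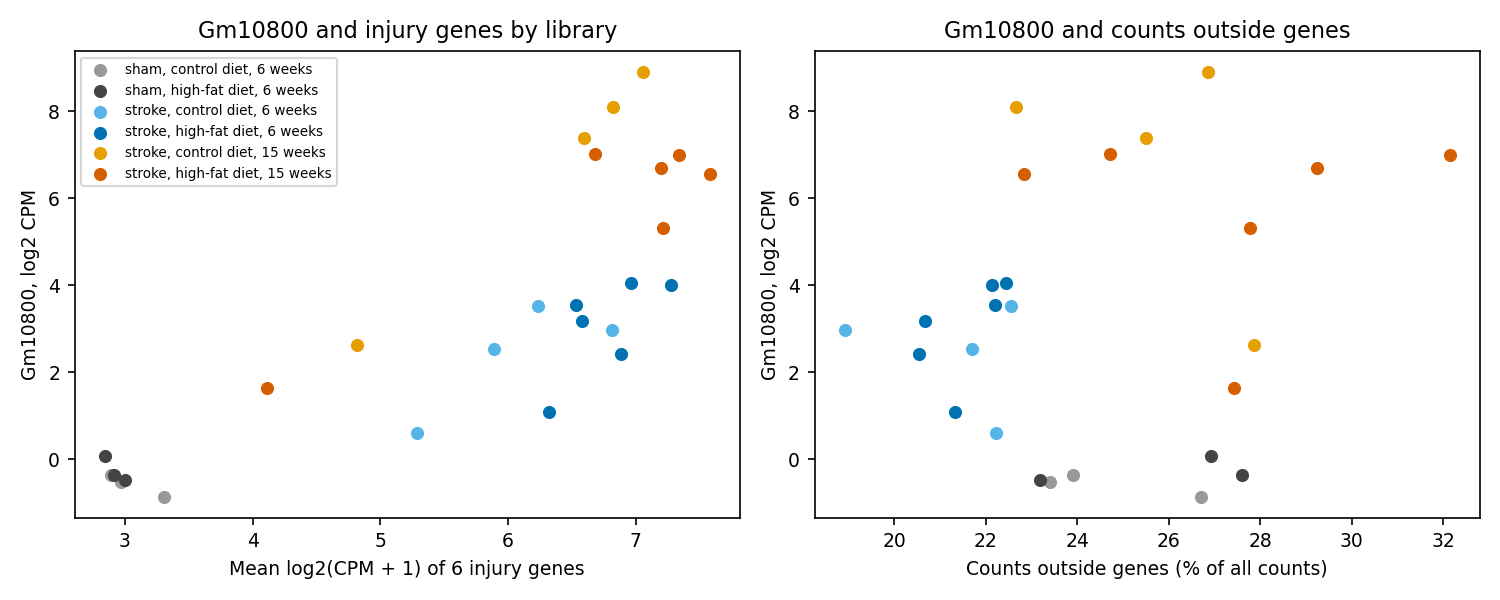
Log2 CPM of Gm10800 (y axes) in each library against the mean log2(CPM + 1) of 6 injury genes (left) and against the share of counts outside genes (right), coloured by group. On the left the 2 low 15-week libraries lie at the Gm10800 level of 6-week stroke, with injury genes between those of 6-week stroke and sham. The other 8 lie above all 6-week stroke libraries in Gm10800. On the right, sham libraries share the range of the 15-week libraries with Gm10800 near or below 1 CPM.

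Shares of counts outside the members were read beside them. Counts outside genes made up 27.4% ± 3.29 (SD, n = 6) of all counts in 15-week stroke on the high-fat diet and 21.6% ± 0.821 (SD, n = 6) at 6 weeks, with no overlap (exact permutation p = 0.00216, adjusted over 42 tests 0.0909). On the control diet they made up 25.7% ± 2.26 (SD, n = 4) and 21.4% ± 1.66 (SD, n = 4), also without overlap (exact permutation p = 0.0286, adjusted 0.24). Sham libraries, where members were near 0, had 24.7% ± 1.78 (SD, n = 3) and 25.9% ± 2.39 (SD, n = 3), and the 15-week pair with low Gm10800 had 27.4% and 27.9%. Counts in 1434 odorant and vomeronasal receptor genes, which are nearly silent in cortex, summed to means of 18.5 and 20.6 CPM in 6-week stroke, 19.7 and 23.7 CPM in 15-week stroke and 27.9 and 26.6 CPM in sham on the high-fat and control diet. Their stroke and sham groups overlapped on both diets. Exact permutation p was 0.143 on the control diet (adjusted over 42 tests 0.5) and 0.0357 on the high-fat diet (adjusted 0.25). Ribosomal DNA genes summed to between 2290 and 24645 CPM at 15 weeks, highest in high-fat replicate 1, where Gm10800 was lowest.

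Genes of heterochromatin and repeat silencing, which keep satellite blocks packed, were read from a list of 47 names of which 45 were tested. In stroke against sham, 3 rose on the control diet and 15 rose and 2 fell on the high-fat diet by edgeR's test at an adjusted p of 0.05, beside 5.10% of all genes higher and 2.57% lower on the control diet and 14.2% and 8.85% on the high-fat diet. The list's median log2 fold changes were 0.12 and 0.08, and 0.00255 and −0.0189 over all genes. Uhrf1, which brings DNA methylation to newly made DNA, rose by 2.87 ± 0.65 (SE, adjusted p = 0.012) and 3.93 ± 0.65 (SE, adjusted p = 0.000438). Chaf1b, a subunit of the complex that lays histones on new DNA, rose by 2.43 ± 0.55 (SE, adjusted p = 0.0102) and 2.95 ± 0.51 (SE, adjusted p = 0.000438). Hells, a remodeller needed for methylation of repeats, rose on the high-fat diet by 1.35 ± 0.23 (SE, adjusted p = 0.0004), and its value of 0.73 ± 0.24 (SE) on the control diet had an adjusted p of 0.0564. Cenpa, the histone variant of centromeres, rose by 1.96 ± 0.37 (SE, adjusted p = 0.000767) on the high-fat diet. Uhrf1, Chaf1b, Hells and Cenpa are also genes of dividing cells. DESeq2 called 4 of the list higher on the control diet, and 15 higher and 3 lower on the high-fat diet. Of all 16325 genes DESeq2 called 1792 and 4037 in these contrasts, higher or lower. In 15 against 6 weeks on the control diet, edgeR and DESeq2 called 0 of the list, with 9 of 45 at an unadjusted p under 0.05 beside 16.8% of all genes. On the high-fat diet 1 rose by edgeR's test, H3f3b, a histone variant gene, by 0.27 ± 0.06 (SE, adjusted p = 0.0165). Over all genes, 0.239% were called higher and 0.325% lower on the control diet in that contrast, 0.735% and 1.62% on the high-fat diet, and 17.7% had an unadjusted p under 0.05 on the high-fat diet. In the diet contrasts and interactions, 0 of the list were called by edgeR or DESeq2, and between 1 and 4 had an unadjusted p under 0.05, beside 4.79% to 7.96% of all genes. In the interaction of diet and weeks, 0% of all genes were called and 4.85% had an unadjusted p under 0.05.

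Sensors of double-stranded and repeat RNA, which recognise such transcripts in the nucleus or cytoplasm, were tested for all 21 names. In stroke against sham 10 rose on the control diet, and 11 rose and 1 fell on the high-fat diet, with medians of 0.43 and 0.47. Over all genes 5.10% and 14.2% were called higher and 2.57% and 8.85% lower. DESeq2 called the same numbers and, on the control diet too, 1 lower, Adarb1, an enzyme that edits double-stranded RNA. Of all 16325 genes DESeq2 called 1792 on the control and 4037 on the high-fat diet, higher or lower. Zbp1, a sensor of Z-form nucleic acid, rose by 4.74 ± 0.87 (SE, edgeR adjusted p = 0.00394) and 5.42 ± 0.85 (SE, adjusted p = 0.000294). Eif2ak2, the kinase PKR, rose by 1.55 ± 0.34 (SE, edgeR adjusted p = 0.0108) and 2.19 ± 0.34 (SE, adjusted p = 0.000289). In 15 against 6 weeks, edgeR called 0 on the control diet, with 5 of 21 at an unadjusted p under 0.05 beside 16.8% of all genes. DESeq2 called 1, beside 0.239% of all genes called higher by edgeR. On the high-fat diet 1 rose by edgeR's test, beside 0.735% of all genes, and 3 by DESeq2, the 1 being Safb, a nuclear scaffold protein, by 0.30 ± 0.08 (SE, edgeR adjusted p = 0.0361). The list's median log2 fold changes there were 0.047 and 0.05, and 0.00237 and 0.00722 over all genes. In the diet contrasts and interactions, 0 were called by edgeR or DESeq2, with 0 or 1 at an unadjusted p under 0.05. Over all genes edgeR called 0% there, and 4.79% to 7.96% had an unadjusted p under 0.05. Whether the sensor levels are tied to the member levels was not tested.

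RNAs kept in the nucleus were read from 14 names, 11 of them tested. In stroke against sham on the control diet 0 were called by edgeR or DESeq2, with 2 of 11 at an unadjusted p under 0.05 by edgeR, beside 23.2% of all genes. EdgeR called 5.10% of all genes higher and 2.57% lower in that contrast. In stroke against sham on the high-fat diet 3 fell, Snhg11, Rian and Meg3, the last by 0.55 ± 0.16 (SE, edgeR adjusted p = 0.0183), beside 8.85% of all genes called lower. In 15 against 6 weeks, Meg3 and Miat were higher on the control diet, at log2 fold changes of 0.73 ± 0.17 (SE, edgeR adjusted p = 0.0448) and 0.66 ± 0.14 (SE, adjusted p = 0.0441). On the high-fat diet Malat1, Neat1 and Meg3 were higher, by 0.57 ± 0.14, 0.83 ± 0.21 and 0.52 ± 0.14 (SE, edgeR adjusted p of 0.0355, 0.0385 and 0.0444). Over all genes, 0.239% and 0.735% were called higher by edgeR in these contrasts. The list's median log2 fold changes at 15 weeks were 0.22 and 0.14. Whether the share of nuclear RNA bears on the member levels was not tested.

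Another list held 22 names picked as repeat-like, mostly predicted genes with Lars2 among them, of which 12 were tested. In the sequence search only Gm17535, Gm21738 and Gm26870 of this list matched the members. In stroke against sham 1 of the 12, Gm47283, which had no such match, rose on both diets. Its log2 fold changes were 0.87 ± 0.26 (SE, edgeR adjusted p = 0.0405) and 0.99 ± 0.24 (SE, adjusted p = 0.005). Over all genes 5.10% and 14.2% were called higher. DESeq2 called 2 on each diet, Gm47283 with Gm26870 on the control and with Gm21738 on the high-fat diet. Of all 16325 genes DESeq2 called 1792 and 4037 on these diets, higher or lower. The related Gm26870 had a log2 fold change of 3.83 ± 2.03 (SE, edgeR adjusted p = 0.264) on the control diet. At 15 against 6 weeks edgeR called 2 higher on the control diet, Gm21738 and Gm26870 at log2 fold changes of 4.74 and 4.41, beside 0.239% of all genes, and 1 on the high-fat diet, Gm21738 at 2.92, beside 0.735%. DESeq2 called these 2 on the control diet and 4 on the high-fat diet, adding Gm15564 and Gm42418. Gm21738 and Gm26870 are close to the members in sequence, so their values at 15 weeks are no separate evidence. In the diet contrasts and interactions 0 of 12 were called by edgeR or DESeq2, with 0 to 2 at an unadjusted p under 0.05. EdgeR called 0% of all genes in them, with 4.79% to 7.96% at an unadjusted p under 0.05.

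The genes most like the summed members over all 26 libraries, by Spearman's rho of CPM, were Gm21738 at 0.971, then Prr11 at 0.938, Il1rl2 at 0.936 and Fbln2 at 0.932. Fn1, the matrix protein fibronectin, and Vwf, the endothelial clotting factor, had rho of 0.927 and 0.925. These 26 libraries share the stroke and sham difference. Within the 10 libraries of 15-week stroke, Gm21738 had rho of 1.00, followed by 1700113A16Rik at 0.964 and Creb3l1 at 0.952. The last 2 averaged 1.0 and 1.23 CPM there. These genes were picked as the highest of many over few libraries, among them the pair with low injury genes, and no test was made of them. Gm21738 stood at medians of 0.140 and 0.144 CPM in sham, 1.02 and 1.42 CPM in 6-week stroke and 24.1 and 12.02 CPM in 15-week stroke on the control and high-fat diet, the same order of groups as the summed members.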

How the data were processed

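Cortex RNA was extracted with Trizol and made into stranded total RNA libraries (TruSeq) sequenced as read pairs by Illumina, per the labels' protocols. Each deposited file holds whole-number counts per gene for 1 library, with no normalization seen in the values. The submitters' processing notes name mm9 as the build, and as tools STAR, HTSeq, featureCounts and Trim Galore. Their order, versions, annotation, strand setting and handling of reads with several placements are not given in the sources used here. Entries that name no gene (outside genes, ambiguous, low quality, not uniquely placed) held between 45.69% and 58.16% of counts and stayed out of library sizes. Reads not uniquely placed made up between 24.1% and 32.1% of counts, and how many of them came from satellite repeats the files do not show. Names, strand, order and transcripts came from GENCODE M21 (GRCm38), which matched 37607 of 39179 identifiers. Because builds differ, no coordinates are printed.

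Genes were filtered with filterByExpr (minimum count of 10), leaving 16325 genes, and scaled by TMM. EdgeR 4.0.16 (quasi-likelihood, robust, R 4.3.3) fitted a mean for each group to all 26 libraries at once, with Benjamini-Hochberg adjustment over all tested genes at 0.05. SEs were taken from the log2 fold change over the root of its F value. DESeq2 1.42.0, other scalings and filters, only the groups compared and leaving out each library were alternatives. The fits were also run on simulated counts in which genes picked at random were changed. The result of that run is not given here, and it was not set up for genes as variable as Gm10800. Single values were compared by exact permutation of libraries, correlations over 10 libraries by 100000 permutations and over 8 by all of them (scipy 1.17.1), shares by exact Clopper-Pearson intervals. Transcripts were compared by BLAST 2.17.0.

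The members and gene lists were chosen with earlier results of these data known. Named genes are all 10 members, up to 4 genes of a list with the smallest p in a contrast where any of the list is called, and the genes of highest Spearman's rho with the summed members.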

Additional observations from a re-analysis of the deposited data

Results flagged for a closer look

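Of 67 tests for a library far from the rest of its group (groups of 4 to 6 libraries, Dixon's 95% critical value), 7 pointed to a value, and chance gives about 1 in 20. High-fat 15-week stroke replicate 1 was lowest in its group for the mean log2 level of injury genes, at 4.11, and for Gm11168, at 0 CPM. In 6-week stroke on the control diet, replicate 2 was highest for Gm10721, at 0.0637 CPM (1 count), and lowest for reads not uniquely placed, at 26.17% of counts. In 6-week stroke on the high-fat diet, replicate 2 was highest for Gm10720, at 0.0596 CPM (1 count). Replicate 4 of that group was highest for low-quality reads, at 0.0596% of counts, and for the sum of odorant and vomeronasal receptor genes, at 26.4 CPM. The flags for Gm10721 and Gm10720 rest on 1 count where the rest of the group had 0. A lone count is then flagged whatever its size, so these flags cannot be set beside the 1 in 20.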

How the results depend on the processing

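No paired analysis was possible because the labels carry no replicate numbers shared between groups. In stroke against sham on the control diet, the number of members called went from 0 to 2 when only the groups compared were fitted and to 1 with DESeq2, and on the high-fat diet from 0 to 1 under each, with Gm10800 log2 fold changes between 3.26 and 3.58. The share of all genes called when only the groups compared were fitted is not given here. Those member counts therefore cannot be set beside it. DESeq2 called 1792 of all 16325 genes on the control and 4037 on the high-fat diet, higher or lower. Surgery by diet for Gm10800 went from 0.31 to −0.035 without control-diet 6-week stroke replicate 4, and leaving out each library gave values between −0.035 and 0.686, with adjusted p between 0.972 and 1 by edgeR. For stroke against sham these ranges were between 2.90 and 3.6 with control feed, between 3.37 and 3.77 with high-fat feed, and between −1.88 and −0.85 for diet in 15-week stroke. No such fit changed a call. Against all counts in the file, summed medians were 0.361 and 0.504 CPM in control-diet and high-fat sham, 5.87 in high-fat 6-week stroke and 53.3 in high-fat 15-week stroke, since that total is larger by construction. On the scale of counts in genes, medians of the sum without Gm10800 were 0.0699 and 0.141 CPM in control-diet and high-fat sham. They were 1.59 and 1.38 CPM in 6-week stroke on the control and high-fat diet and 11.2 CPM in high-fat 15-week stroke. Levels of 1 to 3 counts, as for most members in sham and 6-week stroke, are at the limit of these depths.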
